A study of Mus musculus with 115 samples.

Results

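The gonad-type difference in liver under estradiol was read from 20 arrays, 1 per mouse as the labels list them, out of 115 arrays of the series and 60 of liver. Arrays were chosen by their labels alone: 10 came from mice born with testes (5 XXSry and 5 XY-Sry) and 10 from mice born with ovaries (5 XX and 5 XY-), all carrying estradiol capsules. The array labelled XY- E replicate 5 was left out of the fit, since its profile resembled that of testosterone arrays: its Hsd3b5 level was 12.26, and the remaining estradiol arrays ranged from 4.5 to 11.19. So 19 arrays entered, and values with it are given beside the main results.

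All mice came from a cross on a C57BL/6J background that separates gonad type from sex chromosomes. In this model Sry, the gene that starts testis development, is missing from the Y chromosome (written XY-) and is carried, or not, as an autosomal transgene. XX and XY- mice lack the transgene and form ovaries, and XXSry and XY-Sry mice carry it and form testes. Every mouse, controls included, was gonadectomised at 75 days of age, received a Silastic capsule at once and was killed 3 weeks later. Estradiol capsules held 50 µg of estradiol in sesame oil, testosterone capsules 5 mM testosterone, and blank capsules adhesive only. The design asks how hormones, sex chromosomes and gonad type each shape liver expression. With the same hormone given to both lines, the comparison described here sets mice that grew up with testes (testis line) against mice that grew up with ovaries (ovary line). The lines also differ by the transgene itself, and per the labels the gonadal sexes were caged apart, so the past gonad, the transgene and the cage cannot be told apart. Nothing in the labels says more of how the mice were sampled, and p-values measure only the spread between these samples.

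Much of the sex difference in mouse liver follows the pattern of pituitary growth hormone. Pulses, as in males, favour genes such as Hsd3b5, Cyp2d9 and the major urinary protein genes, and a steadier level, as in females, favours genes such as Cyp3a41a and A1bg. Estradiol acts on this axis and directly on hepatocytes, and the liver also holds macrophages (Kupffer cells), lymphocytes and, in inflammation, neutrophils, while hepatocytes then secrete acute-phase proteins.

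Levels are log2 intensities after background correction and normalisation, so a difference of 1 is a doubling. A constant of 16 was added before the logarithm, which understates differences of dim probes. Differences are testis line minus ovary line, with the standard error (SE) of the fit. Probes with an adjusted p under 0.05 (limma, with Benjamini-Hochberg adjustment over 11317 tested probes) are termed called. On the estradiol arrays the median raw signal was 124 to 157, and 33.4% to 38.6% of probes were detected. Xist, which marks an inactive X chromosome, was 6.37 to 7.40 in XX and XXSry arrays and 4.45 to 5.45 in XY- and XY-Sry arrays, and the Y-linked Eif2s3y was 4.40 to 4.96 and 7.03 to 8.04, so these 19 arrays fitted their chromosome labels. Probes for Sry were not used as a check of the gonad line. Of 8 hepatocyte markers none was called by limma, with a median difference of 0.08 and 0 at an unadjusted p under 0.05.

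2 ovary-line arrays stood apart from their groups and are named here because many results include them. XX E replicate 1 had Lcn2 at 14.67, Car3 at 7.13 and Cps1 at 11.24, and XY- E replicate 2 had Lcn2 at 14.80, Cyp2d9 at 11.30 and A1bg at 5.64. In a fit that weights arrays by their agreement they received weights of 0.245 and 0.394. Leaving out both was chosen after seeing the data. Of the 78 genes chosen by the naming rules given below, 9 called ones lost their call without both arrays (Saa3, Saa1, Gadd45g, Socs3, Mup2, Slc10a1, Acot1, Ces1f and Rgs16). A1bg and Sult3a1 became called (limma). Outside the 78, Apcs and Itih3 also lost their calls, as the acute-phase list kept only 2, Lcn2 and Orm2. The neutrophil list kept 5 of 7 calls and the macrophage list 9 of 10.

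Under estradiol, 423 of 11317 probes (3.74%) were called between the lines. Higher levels in the testis line were called at 108 probes (0.954%; 96 genes) and lower levels at 315 (2.78%; 289 genes), against a median difference of 0.025 over all tested probes. A difference of at least 1 was reached by 98 of the called probes (0.866% of those tested), 20 of them higher (0.177%) and 78 lower (0.689%). Of the 12 largest rises, 3 were on the list of male-biased liver genes (Hsd3b5, Cyp2d9 and Cyp7b1) and 1 was a major urinary protein gene, Mup4. Of the 12 largest falls, 4 were acute-phase proteins (Lcn2, Saa3, Saa1 and Orm2), 2 were neutrophil markers (S100a8 and S100a9) and 1 was a female-biased gene, Cyp3a41a. Direction was the same within XX and within XY genotypes for 415 of the 423. These were picked on the mean of both differences, which favours a shared sign, and the share over all tested probes was not taken. Within XY alone 6 probes were called (0.053%). Each estradiol slide held 1 array of every genotype, so slide did not separate the lines. The slide of XY- E replicate 5 kept no XY- array in the fit. Slide as a block raised the count to 595. With XY- E replicate 5 added the count was 276, and without XX E replicate 1 and XY- E replicate 2 it was 266, of which 246 were among the 423.

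The 2 arms did not overlap at all at 14 probes (0.124% of those tested), 1 higher (0.00884%) and 13 lower (0.115%) in the testis line. The higher one was Cyp2c55, a cytochrome P450, with levels of 7.15, 7.82 and 8.67 (lowest, median and highest of 10 testis-line arrays) against 4.39, 6.49 and 6.81 (9 ovary-line arrays), a difference of 1.60 ± 0.24 (SE; limma adjusted p = 4.05e-06). The lower ones included Thy1, a surface protein of T cells, Laptm5, a lysosomal protein of blood cells, and Ncf4, a subunit of the phagocyte oxidase; these were picked out for their lack of overlap, after their values were seen, apart from Thy1. Laptm5 was 9.64 to 10.24 in the testis line and 10.41 to 11.32 in the ovary line.

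**Figure D1:**
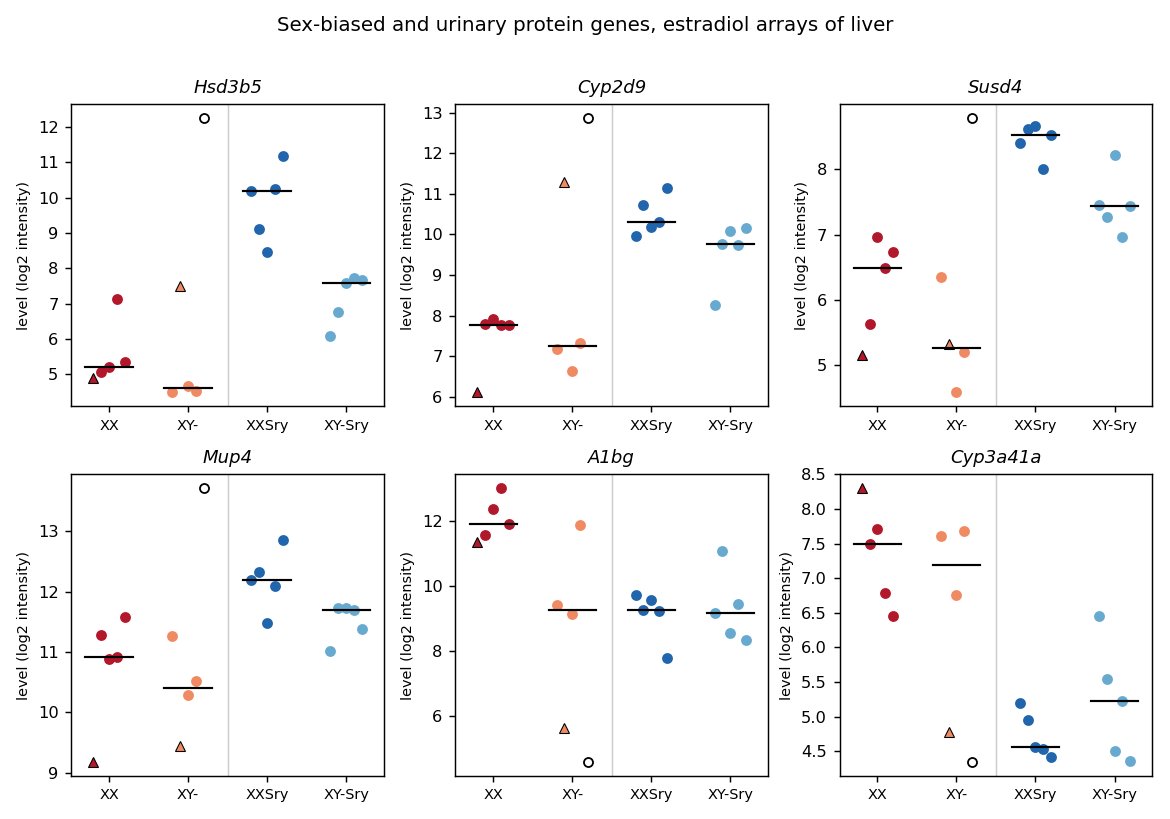
Levels (log2 intensity, 1 point per array) of 6 genes in the 4 estradiol genotypes, with bars at the group medians. Triangles are XX E replicate 1 and XY- E replicate 2, and the open circle is XY- E replicate 5, which is in no median; Hsd3b5, Susd4 and Mup4 are higher in XXSry and XY-Sry, and Cyp3a41a is lower there.

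Of 18 genes listed as male-biased in mouse liver, 14 were tested, 5 were called and all 5 were higher in the testis line (Hsd3b5, Cyp2d9, Cyp7b1, Cyp4a12 and Nudt7). The list's median difference was 0.60, and 13 of the 14 differences were positive. With XY- E replicate 5 the calls were 4 and the median 0.41. Hsd3b5, a ketosteroid reductase of the 3-beta-hydroxysteroid dehydrogenase family, showed the largest rise among all called genes. It was 6.09, 8.10 and 11.19 (lowest, median, highest) in the testis line and 4.5, 5.07 and 7.50 in the ovary line. 8 of 10 testis-line arrays lay above every ovary-line array. The difference was 3.09 ± 0.35 (SE; limma adjusted p = 1.22e-08), 4.31 within XX and 1.86 within XY, and 2.39 with XY- E replicate 5 (adjusted p = 0.00195).

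Cyp2d9, a steroid 16-alpha hydroxylase, was 8.25, 10.12 and 11.15 in the testis line and 6.11, 7.76 and 11.30 in the ovary line. The arms overlapped through 1 array, XY- E replicate 2, which was the highest of all 19. The difference was 2.24 ± 0.35 (SE; limma adjusted p = 1.40e-05), and 1.77 with XY- E replicate 5 (adjusted p = 0.0089). Cyp7b1, the oxysterol hydroxylase of bile acid synthesis, was 11.41, 12.36 and 13.17 against 10.51, 11.08 and 11.45, with 9 of 10 testis-line arrays above every ovary-line array. It differed by 1.36 ± 0.17 (SE; limma adjusted p = 7.82e-08). The probe listed as Cyp4a12, which cannot separate Cyp4a12a from Cyp4a12b, both fatty acid hydroxylases, was higher by 1.09, with 2.09 within XX and 0.09 within XY. Its call was lost with XY- E replicate 5, in which it stood at 11.19, and without background correction.

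Major urinary proteins are pheromone carriers made by hepatocytes. All 5 tested genes of the family had positive differences, with a median of 0.69, and 4 were called (Mup2, Mup3, Mup4 and Mup5); 3 were called with XY- E replicate 5. Mup4 was 11.02, 11.72 and 12.85 in the testis line and 9.18, 10.89 and 11.58 in the ovary line, a difference of 1.27 ± 0.20 (SE; limma adjusted p = 1.45e-05). With XY- E replicate 5 the Mup4 difference was 0.94 (adjusted p = 0.0357). Mup5 differed by 1.23 ± 0.17 (SE; adjusted p = 1.65e-06), with testis-line levels of 10.81, 11.63 and 12.47 and ovary-line levels of 9.36, 10.45 and 11.18. Both arms overlapped for each gene, and on all 5 slides the within-slide difference was positive. On the slide of XY- E replicate 5 that difference was XXSry minus XX only. The call of Mup2 (0.35) was lost on leaving out any 1 of 10 arrays, with adjusted p from 0.0571 to 0.259, and without both arrays that stood apart (0.20; adjusted p = 0.526). It was also lost with XY- E replicate 5 (0.29; adjusted p = 0.166). Probes of this family can share signal between members.

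Among the other large rises, Susd4, a complement regulator with sushi domains, had the smallest adjusted p. It was 6.97, 8.11 and 8.67 in the testis line and 4.59, 5.63 and 6.97 in the ovary line, so the arms met at 6.97. Its difference of 2.17 ± 0.21 (SE; limma adjusted p = 2.45e-10) was 2.24 within XX and 2.10 within XY. Nat8, an N-acetyltransferase, rose by 1.60, and Nox4, an NADPH oxidase, by 1.31. The symbol OTTMUSG00000000231, which had no current gene name here, rose by 1.36, a call lost with XY- E replicate 5 (13.36 in that array). Slc10a1, the sodium-dependent bile acid carrier, was called at 0.63 with the probe detected on none of the ovary-line arrays, so no fold is given. Its call was lost with median centring and without both XX E replicate 1 and XY- E replicate 2 (0.60; limma adjusted p = 0.0592).

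Rgs16, a regulator of G-protein signalling, Car3, a carbonic anhydrase, and Ces1f, a carboxylesterase, were also called but leaned on the 2 arrays that stood apart. Car3 was 12.23, 12.89 and 13.32 in the testis line and 7.13, 12.34 and 12.53 in the ovary line. Its difference of 1.42 fell to 0.90 without XX E replicate 1 (adjusted p = 0.0125), to 0.99 without XY- E replicate 2 (adjusted p = 0.106) and to 0.47 without both (adjusted p = 0.0223). Ces1f went from 1.25 to 0.83 without XY- E replicate 2 (adjusted p = 0.084) and to 0.48 without both (adjusted p = 0.195). With XY- E replicate 5 added, Car3 (1.22; adjusted p = 0.0577) and Ces1f (1.05; adjusted p = 0.0605) also lost their calls. Rgs16 lost its call without XY- E replicate 2 (1.71; adjusted p = 0.124), XY- E replicate 4 (2.03; adjusted p = 0.0512) or XX E replicate 1 (1.95; adjusted p = 0.0657), and was 1.48 without both XX E replicate 1 and XY- E replicate 2 (adjusted p = 0.293).

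Of 15 tested genes listed as female-biased 2 were called, both lower in the testis line, among them Cyp3a41a, and the median difference was -0.12. With XY- E replicate 5 there was 1 call and the median was 0.23, and leaving out any 1 of 7 arrays also gave 1 call. Cyp3a41a, a steroid and drug hydroxylase, was 4.36, 4.75 and 6.46 in the testis line and 4.78, 7.50 and 8.30 in the ovary line. 7 of 9 ovary-line arrays lay above every testis-line array, and the lowest ovary-line value was in XY- E replicate 2. Its difference was -2.05 ± 0.25 (SE; limma adjusted p = 3.02e-08). A1bg, a secreted immunoglobulin-domain protein, was 7.78, 9.26 and 11.08 against 5.64, 11.56 and 13.01 and was not called (-1.31; adjusted p = 0.0832). A1bg differed by -2.93 within XX and by 0.30 within XY, so the mean covers opposite signs. Without XX E replicate 1 and XY- E replicate 2 it was called at -1.96 (adjusted p = 0.000929). Without both arrays 5 of the 15 were called lower and the median was -0.32.

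**Figure D2:**
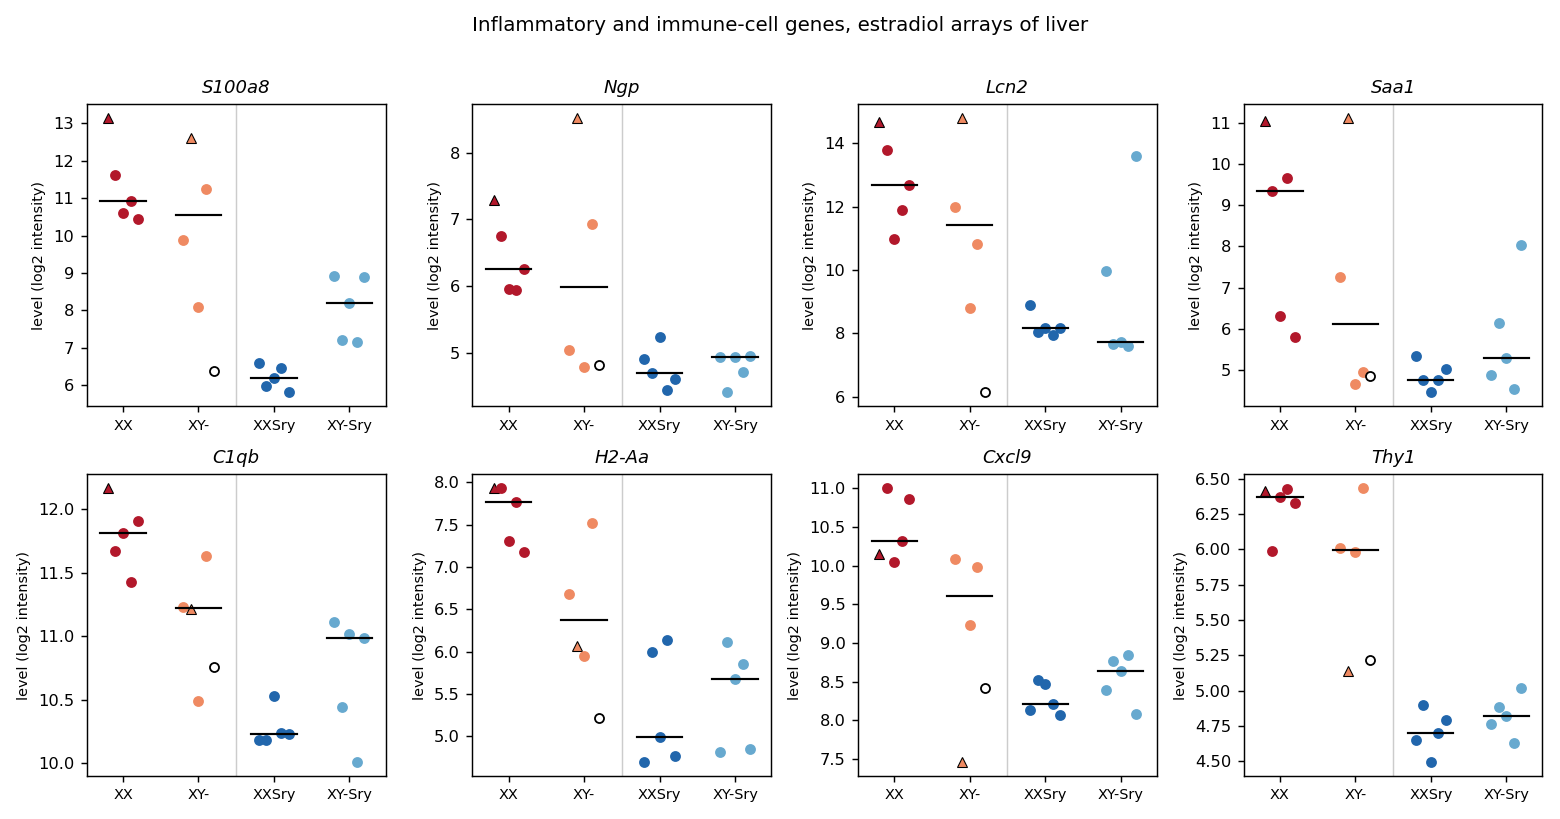
Levels (log2 intensity, 1 point per array) of 8 inflammatory and immune-cell genes in the 4 estradiol genotypes, with bars at the group medians and symbols for XX E replicate 1, XY- E replicate 2 (triangles) and XY- E replicate 5 (open circle). The XX median is the highest of the 4 in each panel, and Thy1 has no overlap between the lines among the 19 arrays of the fit.

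All 7 tested neutrophil markers were called lower in the testis line, also with XY- E replicate 5, and 4 of 7 in a fit of the estradiol arrays alone. The median fitted difference was -1.59, but 4 of the probes (Mpo, Ngp, Camp and Retnlg) were detected on no testis-line array, and with these at their bound it was -0.96. These 4 passed the detection filter only through ovary-line arrays, Mpo, Ngp and Retnlg through those under estradiol alone. Their direction was thus favoured by the filter, and their calls are no independent support for it. The fitted median was -0.63 without background correction and -1.01 with an offset of 50. The 7 markers are granule and calcium-binding proteins of neutrophils and their precursors. S100a8, one chain of calprotectin, was 5.80, 6.87 and 8.93 in the testis line and 8.08, 10.93 and 13.15 in the ovary line. 8 of 9 ovary-line arrays lay above every testis-line array. Its difference of -3.77 ± 0.40 (SE; limma adjusted p = 2.39e-09) was the largest of all called genes, with -5.15 within XX and -2.39 within XY. S100a9, the partner chain, differed by -2.66 ± 0.35 (SE; adjusted p = 4.30e-07), and was detected on 1 testis-line and 7 ovary-line arrays. Retnlg and Ngp were detected on no testis-line array and on 7 ovary-line arrays each. Both were therefore bounded: Retnlg was at least 2.03-fold and Ngp at least 1.74-fold higher in the ovary line (means of normalised log2 values against the lowest signal of detected probes), with adjusted p of 3.17e-06 and 3.09e-06.

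The summed linear level of the 7 neutrophil markers was 1885 to 11250 in XX, 427 to 8691 in XY-, 210 to 266 in XXSry and 280 to 682 in XY-Sry. In these bulk samples, fewer cells of a type and less RNA per cell cannot be told apart. Without XX E replicate 1 and XY- E replicate 2, 5 of the 7 markers were called and the median was -1.12. Ltf, the granule protein lactoferrin, and Prtn3, a granule protease, lay outside the list and differed by -2.82 and -2.64. The remaining large falls were in Chil1, the chitinase-like protein (-2.64), Gadd45g, a stress-response gene (-2.0), and Cd14, the lipopolysaccharide co-receptor (-1.99). Without both arrays that stood apart they were -1.28, -1.31 and -0.96, and Gadd45g was no longer called (limma adjusted p = 0.185).

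Acute-phase proteins are secreted by hepatocytes in inflammation. All 23 tested differences were negative, with a median of -0.50, and 6 were called lower in the testis line (Lcn2, Saa3, Saa1, Orm2, Apcs and Itih3). The calls were 4 with XY- E replicate 5, 4 with median centring, 3 with array weights and 2 in a fit of the estradiol arrays alone. Lcn2, an iron-siderophore binding protein, was 7.60, 8.09 and 13.59 in the testis line and 8.80, 12.00 and 14.80 in the ovary line. The arms overlapped because XY-Sry E replicate 5 reached 13.59 while the other testis-line arrays stayed at or below 9.95. Its difference was -3.44 ± 0.73 (SE; limma adjusted p = 0.00145). Saa3, a serum amyloid A, was 4.85, 5.88 and 11.47 against 5.94, 8.66 and 13.76, with the highest testis-line value again in XY-Sry E replicate 5. It differed by -3.14 (adjusted p = 0.00148), or -1.90 without XX E replicate 1 and XY- E replicate 2 (adjusted p = 0.0584). Saa1 differed by -2.39 and lost its call without XY- E replicate 2 (-1.70; adjusted p = 0.0692) and without both (-1.38; adjusted p = 0.222). Orm2, an orosomucoid, differed by -1.97 ± 0.36 (SE; adjusted p = 0.000217).

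Abundant members of the same list moved little: the fibrinogen chains Fga, Fgb and Fgg differed by -0.0015, -0.28 and -0.26, haptoglobin (Hp) by -0.04 and hemopexin (Hpx) by -0.17, none of them called. Leaving out 1 estradiol array at a time gave 3 to 9 calls in this list (3 without XY- E replicate 2), and leaving out XX E replicate 1 and XY- E replicate 2 together gave 2 calls and a median of -0.20. The neutrophil marker sums given above moved with the same arrays, and their part in these differences was not tested. Socs3, the feedback inhibitor of cytokine signalling that STAT3 induces, was called at -1.24 (adjusted p = 0.0242), a call lost with XY- E replicate 5 and on leaving out any 1 of 4 arrays (adjusted p 0.0538 to 0.0917), and at -0.96 without both arrays that stood apart (adjusted p = 0.215). The other 22 tested members of the growth hormone axis and liver regulator list, among them Ghr (0.22), Stat5a (-0.0035) and Igf1 (0.07), were not called.

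All 10 tested macrophage and Kupffer cell markers were called lower in the testis line, with a median of -0.87. The calls were 8 with XY- E replicate 5, 3 with median centring (median -0.78) and 7 to 10 on leaving out 1 array. C1qb, a chain of complement C1q, was 10.01, 10.34 and 11.11 in the testis line and 10.49, 11.63 and 12.17 in the ovary line, and 8 of 9 ovary-line arrays lay above every testis-line array. Its difference was -0.98 ± 0.15 (SE; limma adjusted p = 1.19e-05). Adgre1, a macrophage surface receptor, differed by -0.96 and Clec4f, the Kupffer cell lectin, by -0.57. The summed level of the 10 markers was 14930 to 22000 in XX, 7801 to 16220 in XY-, 6545 to 7854 in XXSry and 5571 to 12550 in XY-Sry, so the XX and XXSry ranges were apart and the XY- and XY-Sry ranges overlapped. Without XX E replicate 1 and XY- E replicate 2, 9 of 10 were called with a median of -0.90.

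Class II MHC genes, which present antigen on macrophages, dendritic cells and B cells, followed the same direction. Of 16 tested MHC and antigen presentation genes 6 were called, all lower in the testis line and all of the class II pathway (H2-Aa, H2-Eb1, H2-Ab1, Cd74, H2-DMa and H2-DMb1). The list's median was -0.35. H2-Aa was 4.70, 5.33 and 6.14 in the testis line and 5.95, 7.31 and 7.93 in the ovary line, a difference of -1.70 ± 0.22 (SE; limma adjusted p = 1.41e-07). The class I genes H2-K1 and B2m differed by 0.12 and 0.04 and were not called. 6 were called with XY- E replicate 5, and 6 when both arrays that stood apart were left out.

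T cell markers were lower as well. 3 of 5 tested T and NK cell markers were called (Thy1, Cd3g and Cd3d), with a median of -0.69 for the list. None of these 3 was detected on a testis-line array, and with them at their bound the median was -0.20. With blank or testosterone capsules no testis-line array detected them either. They too passed the detection filter only through ovary-line arrays, which favoured their direction. Thy1 was 4.49, 4.78 and 5.02 in the testis line and 5.14, 6.33 and 6.44 in the ovary line. It was at least 1.45-fold higher in the ovary line by the same bound (limma adjusted p = 4.38e-09), and its call held with XY- E replicate 5. Endothelial (7 tested) and stellate cell or fibroblast (7 tested) markers had no limma calls, with medians of -0.18 and -0.03 and 1 gene each at an unadjusted p under 0.05. Of 3 erythroid markers 1 was called, Alas2, which was higher by 0.59, a call lost with XY- E replicate 5.

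Interferon-gamma induced genes were lower in part. Of 13 tested, 5 were called lower (Gbp2b, Cxcl9, Gbp2, Cxcl10 and Irf1), the median was -0.37 and 3 were called with XY- E replicate 5. Cxcl9, a chemokine for activated T cells, was 8.06, 8.43 and 8.85 in the testis line and 7.46, 10.09 and 11.003 in the ovary line. 8 of 9 ovary-line arrays lay above every testis-line array, and the lowest of all was XY- E replicate 2. The difference was -1.42 ± 0.20 (SE; limma adjusted p = 1.59e-06). Gbp2b, a guanylate-binding GTPase listed on the array as Gbp1, differed by -1.50 ± 0.22 (SE; adjusted p = 4.69e-06). The call of Cxcl10 (-0.74) was lost on leaving out any 1 of 9 arrays, with adjusted p from 0.0624 to 0.105. It was also lost with XY- E replicate 5 (-0.63; adjusted p = 0.126). The list had 3 calls without XXSry E replicate 5, XY- E replicate 1 or 4, or XX E replicate 2 or 5. None of 10 tested type I interferon genes was called by limma, with a median of -0.15 and 0 at an unadjusted p under 0.05. That mean covers opposite signs: the type I median was -0.57 within XX and 0.24 within XY. For XX minus XY 6 of the 10 had an unadjusted p under 0.05 (limma) and none was called. The interferon-gamma list had medians of -0.74 within XX and -0.03 within XY, with 9 of 13 at an unadjusted p under 0.05 for XX minus XY.

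Since several of these genes are known to be read out by interferon and cytokine factors, the 250 bases before each RefSeq gene start (GRCm38.p6) were searched on both strands. The interferon-stimulated response element, searched as GAAA and again GAAA with any 2 bases between, was found in 15 of 213 genes called lower that had a promoter entry (7.04%), 3 of 77 called higher (3.90%), 3.39% of tested genes and 3.46% of all genes of the promoter table. Of the 5 called interferon-gamma genes 3 held it. The STAT site, searched as TTCNNNGAA, was found in 22 of 213 called lower (10.3%), 5 of 77 called higher (6.49%), 7.31% of tested genes and 8.13% of all. The full estrogen response element, searched as GGTCA and TGACC with any 3 bases between, was in no called or tested gene's window and in 0.0666% of all genes. A match to these letters is a description, not a site. The stretches below, 100 bases each and read along the gene's strand, show where the matches (in capitals) stand in 3 called interferon-gamma genes, in Irf1, the transcription factor of the same list, and in Socs3.
Cxcl10 (chr5:92349040-92349139, minus strand), response element 213 bases before the start: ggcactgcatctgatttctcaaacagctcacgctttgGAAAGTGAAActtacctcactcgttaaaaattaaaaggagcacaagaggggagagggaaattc
Gbp2b (chr3:142594665-142594764, plus strand), response element on the opposite strand, 137 bases before the start: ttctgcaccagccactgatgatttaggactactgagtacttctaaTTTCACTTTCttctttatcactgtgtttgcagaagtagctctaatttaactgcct
Gbp2 (chr3:142620559-142620658, plus strand), response element on the opposite strand, 59 bases before the start: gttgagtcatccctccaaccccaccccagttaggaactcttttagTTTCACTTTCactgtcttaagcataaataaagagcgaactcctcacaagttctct
Irf1 (chr11:53769878-53769977, plus strand), STAT site 90 bases before the start: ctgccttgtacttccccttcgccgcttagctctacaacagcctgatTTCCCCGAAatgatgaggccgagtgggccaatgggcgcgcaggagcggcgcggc
Socs3 (chr11:117969467-117969566, minus strand), STAT site 154 bases before the start: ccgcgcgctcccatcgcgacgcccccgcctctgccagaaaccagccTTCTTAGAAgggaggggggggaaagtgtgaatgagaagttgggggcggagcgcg
The neighbouring genes Gbp2b and Gbp2 carry the same letters on the opposite strand.

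**Figure D3:**
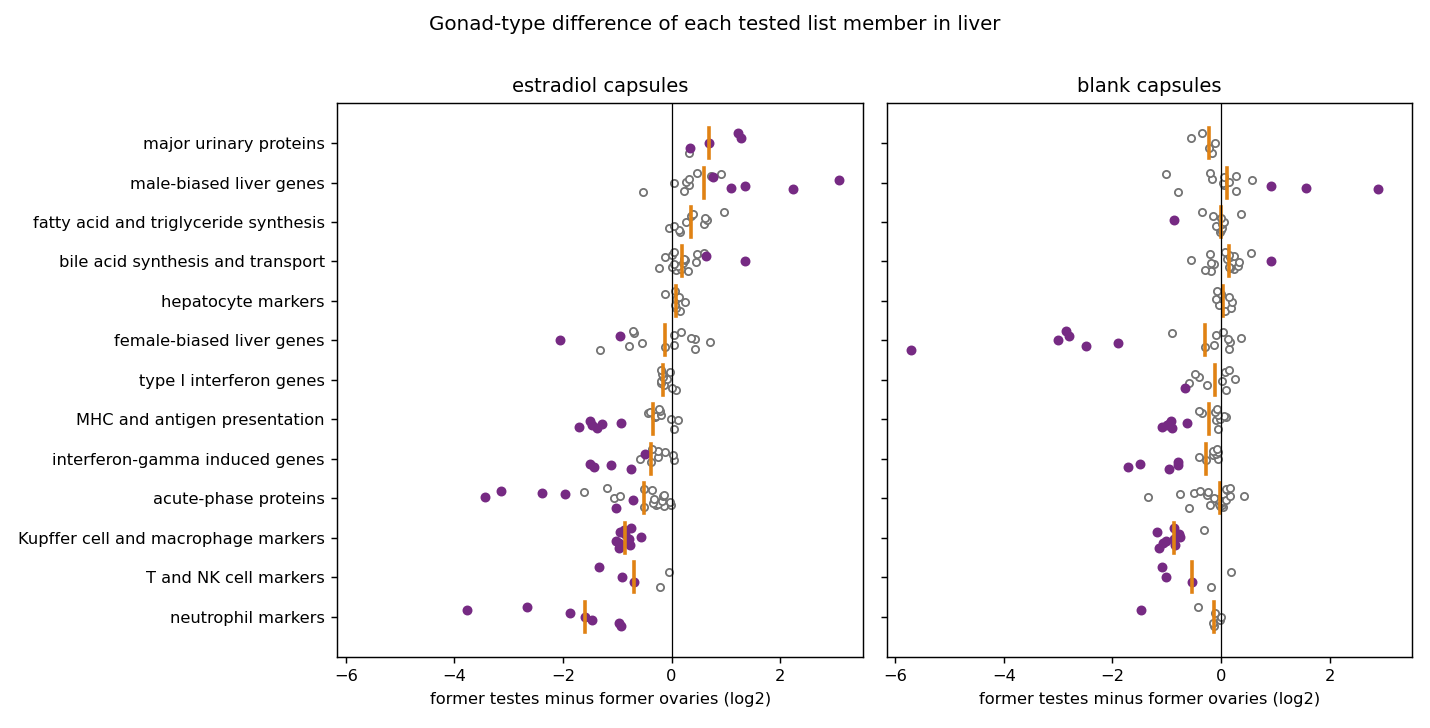
Testis-line minus ovary-line difference (log2) of every tested member of 13 gene lists, 1 point per gene, under estradiol (left) and with blank capsules (right). Filled points are called and orange bars are list medians. Neutrophil markers have a median of -1.59 under estradiol and -0.12 with blank capsules, and the 10 macrophage markers -0.87 in both. Of the 7 neutrophil probes, 4 were tested only through ovary-line arrays.

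Metabolic lists showed few calls. Of 18 bile acid genes 2 were called, Cyp7b1 and Slc10a1, the latter at a probe detected on 5 of 10 testis-line arrays and no ovary-line array. Among 18 cholesterol synthesis genes none was called (limma; median 0.08, with 0 at an unadjusted p under 0.05). None of 11 fatty acid and triglyceride synthesis genes was called at the probe with the highest mean level, with a median of 0.35, 10 positive differences and 5 genes at an unadjusted p under 0.05 (2 were called without XY- E replicate 3); a second probe of Me1, malic enzyme, was called at 0.79 and is named after its value was seen. Of 16 PPAR-alpha targets 1 was called, Acot1, an acyl-CoA thioesterase, at 0.78. That call was lost with XY- E replicate 5 (0.69; limma adjusted p = 0.0808). Leaving out any 1 of 7 arrays from the main fit also lost it, as did leaving out both arrays that stood apart (0.51; limma adjusted p = 0.341). The estrogen receptor gene Esr1 was 6.15 to 7.40 over both lines and differed by 0.03 ± 0.19 (SE), and was not called.

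By its estimate alone, the difference was larger in XX than in XY genotypes at 355 of the 423 called probes. These probes were picked on the mean of both differences, and the share over all tested probes was not taken. The count by itself therefore shows no general tendency. Taken alone, XXSry against XX gave 452 called probes (3.99%) and XY-Sry against XY- gave 6 (0.053%), with 5 and 4 arrays in the ovary groups. Within XX 129 probes were higher (1.14%) and 323 lower (2.85%), and within XY 3 were higher (0.0265%) and 3 lower (0.0265%). The test of the difference between these contrasts called 7 probes (0.0619%): Gbp2b, Cd74 (at 2 probes), H2-Ab1, Art2b, Il10ra and Plekhg6, of which 1 was positive (0.00884%) and 6 negative (0.053%). Cd74, the class II invariant chain, was 11.34 to 11.72 in XX, 9.64 to 10.78 in XY-, 9.31 to 9.60 in XXSry and 9.24 to 9.99 in XY-Sry. XX arrays lay above all others, XY- arrays lay above the XXSry arrays, and the XY-Sry range overlapped both XY- and XXSry. Its differences were -2.09 within XX and -0.64 within XY, which differ by -1.45 (limma adjusted p = 0.0452). Gbp2b was 7.10 to 8.08 in XX, 5.21 to 7.17 in XY-, 4.87 to 5.62 in XXSry and 5.62 to 6.82 in XY-Sry, with differences of -2.63 and -0.37 (adjusted p = 0.0209 for their difference).

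All 10 macrophage markers had an unadjusted p under 0.05 in this test and none was called. For S100a8, with -5.15 and -2.39, and Lcn2, with -4.57 and -2.30, the test of the difference gave limma adjusted p of 0.219 and 0.947, so a larger difference in XX was not shown for them. The 6 probes called within XY were Susd4, Thy1, Ltf, Mcm10, Slc13a3 and OTTMUSG00000000231. These counts were unstable. The interaction count was 2 to 31 on leaving out 1 array (31 on leaving out XY- E replicate 4, 14 for XY- E replicate 1, 11 for XX E replicate 4, and 2 for each of XXSry E replicates 3 and 4, XY- E replicate 2 and XX E replicate 2), and 23 with XY- E replicate 5. The count within XY was 1 to 22 (22 without XY- E replicate 3, 12 without XY-Sry E replicate 1, 1 without XY-Sry E replicate 2 or XY-Sry E replicate 4) and 0 with XY- E replicate 5, when 496 probes had an unadjusted p under 0.05. Within XX the count was 291 without XX E replicate 1.

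**Figure D4:**
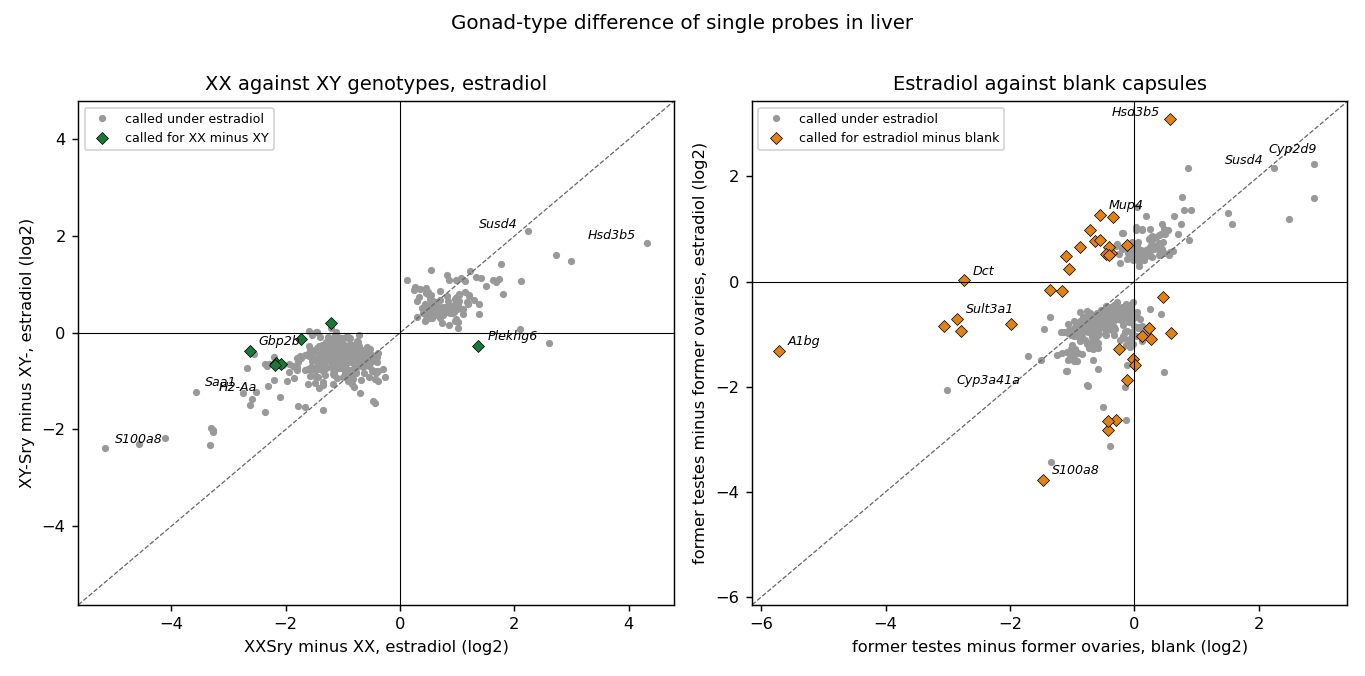
Left, difference within XX (XXSry minus XX) against difference within XY (XY-Sry minus XY-), both log2, for the 423 probes called under estradiol (grey) and the 7 called for XX minus XY (green). Right, testis-line minus ovary-line difference with blank capsules against that under estradiol, with the 35 probes called for their difference (orange); dashed lines mark equality, and A1bg lies far to the left with -5.72 and -1.31.

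The same contrast between the lines was available with blank and with testosterone capsules, which use other mice. With blank capsules 225 probes were called (1.99%), 42 higher (0.371%) and 183 lower (1.62%), and under testosterone 26 (0.23%). Of the 108 probes higher under estradiol 17 were also called higher with blank capsules (15.7% of the 108 and 40.5% of the 42 called there), and of the 315 lower 113 were (35.9% and 61.7% of 183). Under testosterone 2 and 10 were shared. No probe was called in opposite directions. The 10 macrophage markers had the same median of -0.87 with and without estradiol, with 9 called with blank capsules, and the 6 class II genes were called lower in both.

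The test of estradiol minus blank called 35 probes (0.309%), 22 positive and 13 negative. Female-biased genes with a smaller gap under estradiol were among the positive ones. A1bg was 4.86, 5.96 and 6.63 in the testis line and 9.51, 11.52 and 13.45 in the ovary line with blank capsules (10 arrays each). Those arms did not overlap, with a difference of -5.72 against -1.31 under estradiol (difference 4.41 ± 0.61, SE; limma adjusted p = 1.72e-05). The testis-line median was 9.26 under estradiol. Sult3a1, a sulfotransferase, was detected on no testis-line array with blank capsules and was at least 4.02-fold higher in the ovary line there (fitted difference -2.85), against -0.71 under estradiol. Dct, dopachrome tautomerase, had differences of -2.74 and 0.02. Cyp3a41a, also not detected in the testis line with blank capsules, was at least 3.67-fold higher in the ovary line there (fitted difference -3.01), against -2.05 under estradiol, and the change was not called (adjusted p = 0.44).

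Major urinary proteins and Hsd3b5 differed under estradiol and were not called with blank capsules. Mup4 was 10.40, 11.28 and 11.61 in the testis line and 11.17, 11.73 and 12.15 in the ovary line with blank capsules, a difference of -0.55 that was not called, and changed by 1.83 (limma adjusted p = 6.19e-05). Mup5 changed by 1.58 and Mup3 by 0.81. Hsd3b5 went from 0.58 with blank capsules to 3.09 (change 2.51; adjusted p = 0.00413). The differences with blank capsules and under estradiol were 2.25 and 2.17 for Susd4 and 2.89 and 2.24 for Cyp2d9, and neither change was called.

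On the negative side stood neutrophil markers. Of the 7, 5 were called for the change (S100a8, S100a9, Retnlg, Ngp and Mpo), and only S100a8 was called with blank capsules. The other 6 were detected on no testis-line array with blank capsules, so the sizes of these changes rest on levels not above background. Retnlg, Ngp and Mpo were detected on no blank array of either line and were tested only through ovary-line estradiol arrays. A larger difference under estradiol was thus favoured by how they were selected. S100a8 was 5.06, 5.87 and 6.29 in the testis line and 6.10, 7.06 and 10.71 in the ovary line with blank capsules, and its difference changed by -2.29 (limma adjusted p = 0.0416). Ltf changed by -2.40 (adjusted p = 0.00351). None of the 23 acute-phase proteins was called by limma with blank capsules or for the change, with 2 and 7 at an unadjusted p under 0.05. The count of 35 was 9 (8 positive) with XY- E replicate 5, and 23 (18 positive, 5 negative) with median centring, which moved the median change of all probes from 0.01 to 0.14.

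Against testosterone, 59 probes were called for the change (0.521%), 17 positive (0.15%) and 42 negative (0.371%). S100a8 differed by 0.20 between the lines under testosterone, with 5.26 to 8.14 in the testis line and 5.75 to 7.25 in the ovary line, a change of -3.97 (limma adjusted p = 2.42e-05). Hsd3b5 was 11.15 to 12.95 and 12.18 to 12.74 there, a difference of -0.16 and a change of 3.25 (adjusted p = 7.48e-05). Susd4 changed by 1.86 and Cyp2d9 by 2.18. Scara5, a ferritin receptor, was at least 3.46-fold higher in the testis line under testosterone, where no ovary-line array detected it (fitted difference 2.62), and had a difference of -0.13 under estradiol, with 1 high value of 7.37 in XX E replicate 1. The count was 17 with XY- E replicate 5. It was 31 without XX E replicate 1, 34 without XY- E replicate 2, 35 without XY-Sry E replicate 4, 37 without XY-Sry T replicate 3, 47 without the array labelled XY-Sry T replicate 5, whose Xist and Eif2s3y went against its label, and 130 without XY- E replicate 3.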

How the data were processed

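RNA of 60 livers was measured on 1-colour Illumina BeadChips, and the 20 estradiol arrays are described here. The deposited table holds, per the file headers, a mean bead intensity and a detection p-value for each probe and array; lumi is named in the submitters' processing notes without a version or a role, and other steps the authors took are not given in the sources used here. Values were read as unnormalised, with 25697 probes.

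Intensities were corrected in limma 3.58.1 (R 4.3.3) by normexp with controls inferred from the deposited detection p-values, 16 was added, and arrays were quantile normalised and taken to log2. Probes detected (p under 0.01) in at least 5 of 60 liver arrays were tested, 11317 in all. A mean per group was fitted (lmFit, eBayes) over 59 arrays of 12 groups, without XY- E replicate 5, and p-values were adjusted by Benjamini-Hochberg within each contrast. The number of arrays limits the precision. Lists take 1 probe per gene, that with the highest mean level, and have no list test. Current symbols came from RefSeq (GRCm38.p6), for 10995 of 11317 probes, and promoters from the same source.

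Genes named are the 12 largest called differences in each direction with the same sign within XX and XY, the 6 leading probes of each interaction, up to 4 called members of each list (or 2 where none was called), and receptor and sex chromosome genes; a few others are marked where they are named. The members and the 29 lists were chosen with earlier results of these data known. Of the marker lists, B cell, dendritic, cholangiocyte and proliferation markers had 2, 1, 1 and 1 tested genes, with 1 call, Cd79b (lower). The sulfotransferase and glutathione transferase (21 tested), cytochrome (24) and steroid enzyme (12) lists had 0, 4 and 2 calls. Some named genes are not reported here. Alternatives are listed in the closing section.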

Additional observations from a re-analysis of the deposited data

Results flagged for a closer look

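In each estradiol group the highest and the lowest array were set against the others for every named gene (Dixon's test at the 95% level), and 36 values of 312 groups (11.5%) stood apart, where chance sets about 1 in 20 apart. XX E replicate 1 held 12 of them: Ltf at 9.19, Chil1 at 11.71 and Scara5 at 7.37 were above the other XX arrays, and Cps1 at 11.24, Gstm6 at 8.07, Sc5d at 5.08, Mup3 at 12.76, Ces1f at 7.69, Nox4 at 4.5, Car3 at 7.13, Cyp2c55 at 4.39 and Cyp2d9 at 6.11 were below them. XY- E replicate 2 held 9: Chil1 at 13.06, the Cyp4a12 probe at 6.32, Cyp2d9 at 11.30 and Hsd3b5 at 7.50 were above the other XY- arrays, and Gbp2 at 8.33, Cxcl10 at 5.58, Serpina1a at 11.97, Sc5d at 7.09 and Car3 at 8.97 were below them. Chil1, a chitinase-like protein of macrophages and neutrophils, was high in both arrays. Sc5d and Car3 were flagged low in both, Sc5d in XY- E replicate 2 by a small gap (7.09 against 7.29 to 7.31). Ces1f, flagged in XX E replicate 1 only, was also low in XY- E replicate 2 (7.81 against 10.67 to 11.38).

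Single high values were Saa3 at 11.47 and Chil1 at 8.54 in XY-Sry E replicate 5, Lcn2 at 8.88 and Orm2 at 11.81 in XXSry E replicate 1, Hsd3b5 at 7.14 in XX E replicate 4, the Cyp4a12 probe at 5.05 in XX E replicate 2, C1qb at 10.53 in XXSry E replicate 3, Lyve1 at 5.43 in XY- E replicate 3 and Eif2s3y at 4.96 in XXSry E replicate 2. Single low values were H2-Ab1 at 8.65 in XXSry E replicate 1, Prtn3 at 7.88 in XX E replicate 4, Thy1 at 5.99 in XX E replicate 2, A1bg at 7.78 in XXSry E replicate 5, and OTTMUSG00000000231 at 9.51 and Cyp2d9 at 8.25 in XY-Sry E replicate 1.

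The gonad-type difference under estradiol differed from that with blank capsules at these genes, each called by limma. The change was positive for A1bg (4.41), Dct (2.77), Hsd3b5 (2.51), Sult3a1 (2.14), Mup4 (1.83), Mup5 (1.58), Acot1 (1.41), LOC620807 (0.91) and Mup3 (0.81). It was negative for Ltf (-2.40), Prtn3 (-2.35), S100a8 (-2.29), S100a9 (-2.24), Retnlg (-1.76) and Ngp (-1.60).

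The sizes for Ltf, Prtn3, S100a9, Retnlg, Ngp and Sult3a1 rest on probes detected on no testis-line array with blank capsules, and for Retnlg and Ngp on none under estradiol either, so they are fitted values and no measured sizes. Retnlg and Ngp were tested only through ovary-line estradiol arrays, which favoured the sign of their changes.

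Against testosterone the change was positive for Hsd3b5 (3.25), Cyp2d9 (2.18), Susd4 (1.86), Mup4 (1.51), Mup5 (1.2), OTTMUSG00000000231 (0.96) and Mup3 (0.79). It was negative for Lcn2 (-4.25), S100a8 (-3.97), Prtn3 (-3.23), Saa1 (-3.20), Ltf (-2.82), S100a9 (-2.81), Scara5 (-2.75), Orm2 (-2.36), Retnlg (-2.08), Cyp3a41a (-2.0) and Ngp (-1.64). Under testosterone Ltf, Cyp3a41a, Retnlg and Ngp were detected on no array of either line, and S100a9 and Scara5 on none of the ovary line, so these too are fitted values. Between XX and XY genotypes the difference under estradiol changed by -2.26 for Gbp2b and by -1.45 for Cd74.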

How the results depend on the processing

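The count of 423 called probes became 276 with XY- E replicate 5, 208 with median centring, 236 in a fit of the estradiol arrays alone and 266 without both XX E replicate 1 and XY- E replicate 2 (an alternative chosen after seeing the data), and was 297 to 527 on leaving out 1 array. Within XX (452) it was 264 with median centring, 295 for estradiol arrays alone, 716 with slide as a block, and 291 to 505 on leaving out 1 array. Within XY (6) it was 0 with XY- E replicate 5, 12 with an offset of 50, 1 with median centring, 0 for estradiol arrays alone (562 at an unadjusted p under 0.05), 3 without the filter on dim probes, 19 with the slide block, 10 without XY-Sry T replicate 5, and 1 to 22 on leaving out 1 array. For XX minus XY (7) the same settings gave 23, 15, 3, 1, 2 and 37, with 17 without background correction, 2 without both arrays and 2 to 31 on leaving out 1 array. For estradiol minus blank (35) they were 9 with XY- E replicate 5, 23 with median centring, 53 with the slide block and 28 to 46 on leaving out 1 array. For estradiol minus testosterone (59) they were 17, 18 and 143, with 29 without the filter, 29 without both arrays and 31 to 130 on leaving out 1 array. With blank capsules (225) the count was 375 with array weights and 165 to 255 on leaving out 1 array, and under testosterone (26) it was 9 with median centring, 40 with array weights and 17 to 29 on leaving out 1 array. The cause of these changes was not tested, and some of the fits held fewer arrays. The fit of estradiol arrays alone gives no value for the contrasts with blank or testosterone arrays.

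No named gene that was called changed direction under any alternative run. Genes near 0 that were not called changed sign. Ranges on leaving out 1 array were -0.232 to 0.121 for Scara5, -0.151 to 0.065 for Siglech, -0.052 to 0.109 for Xist, -0.334 to 0.239 for Dct and -0.053 to 0.107 for Esr1. Array weights gave 0.199 for Scara5, -0.006 for Xist and -0.13 for Dct. Dct was also -0.054 without background correction and -0.019 with an offset of 50. Without both arrays Scara5 was 0.30, Siglech 0.061, Xist -0.069, Dct -0.367, Reln -0.012 and Cps1 -0.043. Median centring moved the median difference of all probes under estradiol from 0.025 to 0.103 and that of estradiol minus blank from 0.01 to 0.14. Under testosterone 13 probes were higher and 13 lower, or 9 and 0 with median centring, and for estradiol minus blank 22 and 13, or 18 and 5. Replicate numbers follow accession order and pair no arrays, so the slide, which holds 1 estradiol array of each genotype, was the block used (595 calls under estradiol). Of the named genes, 13 called ones lost their call on leaving out some array. The added constant understates differences of probes near background.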
